A study of Mus musculus with 43 samples.

Results

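Prlr, Ghr and Esr1, which encode the receptors for prolactin, growth hormone and estrogen, were followed along the female mouse proximal tubule. With them went 6 genes grouped as hormone-regulated or steroid-modifying: Kap, Napsa, Akr1c18, Cish, Hsd11b1 and Hsd11b2. For Napsa no regulating hormone is named here. These 9 of the 54532 genes in the expression table were taken by symbol. They were selected on their known roles and on the expression values themselves, which had been seen in earlier work on the same table, so their differences between segments are given as a description and support nothing. The tubule has 3 successive segments, S1, S2 and S3. Segments were dissected from female C57BL/6 mice of 6 to 8 weeks, 2 to 5 tubules a sample, with no treatment or transgene named in the labels. There were 6 RNA-seq libraries from S1, another 6 from S2 and 7 from S3. The expression table gives 1 value per gene and segment for them, in TPM, a measure scaled to transcript length and to 1 fixed total per segment. There is no spread, no replicate check and no test, and the depth is unknown. If the number in each title is the animal, S1 came from 2 animals and S2 from 3 others, so segment and animal cannot be told apart between these, while S3 had animals in common with both.

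Prolactin and growth hormone are pituitary hormones whose receptors belong to the class I cytokine receptors. Hormone binding activates the kinase JAK2, which phosphorylates STAT5. STAT5 then enters the nucleus and induces, among others, Cish and other suppressors of cytokine signalling that damp the receptor. Steroid hormones act through nuclear receptors that bind DNA, and enzymes inside the cell decide which steroid reaches them: 11-beta-hydroxysteroid dehydrogenase 1 regenerates active glucocorticoid, and its type 2 counterpart inactivates it. The mouse kidney is a classical target of androgens, and its proximal tubule differs between the sexes in many transporters and enzymes.

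Of the 9 genes, 8 reached 1 TPM in at least 1 segment, the level required for comparison, and Hsd11b2 did not. A difference was counted when it was at least 2-fold on the log2(TPM + 1) scale. On that scale low values lie closer together than their plain TPM ratio, and "less than 2-fold" is meant on it throughout. All 8 were lower in S1 than in S2 by that measure, where 17.7% of the 16053 genes compared were lower and 6.62% higher. S3 was likewise above S1 for all 8, against 13.1% of all genes lower and 10.5% higher. Between S2 and S3, Hsd11b1 was higher in S2 and Akr1c18 lower, against 8.74% and 2.24% of all genes, and the other 6 differed by less than 2-fold. The median difference of all genes was -0.18 for S1 minus S2 and -0.01 for S1 minus S3, while S2 minus S3 gave 0.12. A 2-fold difference between highest and lowest segment was found in 33.3% of all genes. These shares over all genes are also the background for every gene list counted below. Since these contrasts chose the genes, nothing is read from the counts. Among all genes that differed between S1 and S2, 27.2% were higher in S1. The share was 43.4% after quantile normalization and 69.1% after median-of-ratios scaling. Between S2 and S3 the shares higher in S2 were 79.6%, 64.0% and 43.0%.

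**Figure D1:**
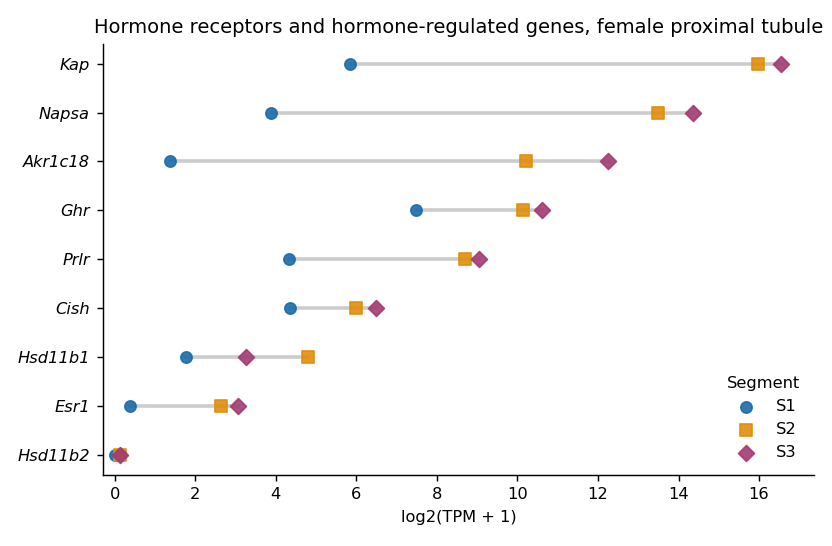
Expression of the 9 genes in female S1, S2 and S3, as log2(TPM + 1) on the horizontal axis, with 1 value per gene and segment and no error. Kap, Napsa and Akr1c18 span more than 10 log2 units, Hsd11b1 is the 1 gene of those above 1 TPM with its highest value in S2, and Hsd11b2 lies at the left end in each segment.

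Kap, Napsa and Akr1c18 had the greatest contrast. Kap encodes the kidney androgen-regulated protein, a small secreted protein made by proximal tubule cells. Its level was 56.5 TPM in S1 against 64255 in S2 and 95736 in S3. It stood 2115th among all genes in S1 and first in both S2 and S3. Napsa encodes napsin A, an aspartic protease of lysosomes and secretory granules. It was at 13.8, 11494 and 21179 TPM, which was 9th of all genes in S2 and 3rd in S3. Akr1c18 encodes 20-alpha-hydroxysteroid dehydrogenase, which inactivates progesterone. It was at 1.6 TPM in S1 against 1192 in S2 and 4895 in S3. Kap had the greatest deficit in S1 against S2 of all genes compared (-10.13 on the log2 scale), and Napsa was next (-9.60). Against S3, Akr1c18 came first (-10.88), followed by Kap (-10.70) and Napsa (-10.48).

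The 3 genes parted between S2 and S3. Akr1c18 was 4.11-fold higher in S3, while Napsa was 1.84-fold and Kap 1.49-fold higher. The TPM ratio of Kap to Napsa stayed between 4.09 (S1) and 5.59 (S2), with 4.52 in S3. That of Kap to Akr1c18 was 35.3, then 53.9, then 19.6 along the tubule. Thus Kap and Napsa kept nearly 1 proportion along the tubule and Akr1c18 did not. The S2 to S3 step of the first pair depended on scaling. Napsa passed 2-fold after quantile normalization (-1.18) and median-of-ratios scaling (-1.40). Kap was at -1.09 after the latter and at 0.00 after quantile normalization, which sets the top gene of each column equal.

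Promoter windows from RefSeq (GRCm38.p6), 250 bases before to 50 after a start site, were found for 7 of the 9 genes, 11 windows in all, with none for Napsa and Hsd11b2. They were searched on both strands for TGTTCT, a half-site that several steroid receptors have in common, and for its full inverted repeat with a 3-base spacer, which contains it. TGACC, the estrogen receptor half-site, and TTCNNNGAA, the STAT5 type of site, were searched too. The windows of the 2 genes with the greatest S1 to S3 contrast, Kap and Akr1c18, are shown up to the start site to let them be compared. Neither has any of these motifs before its start, so both are in lower case throughout. Akr1c18 has TGACC on the minus strand from base 29 to 33 after the start.
Kap (chr6:133853668-133853917, minus strand): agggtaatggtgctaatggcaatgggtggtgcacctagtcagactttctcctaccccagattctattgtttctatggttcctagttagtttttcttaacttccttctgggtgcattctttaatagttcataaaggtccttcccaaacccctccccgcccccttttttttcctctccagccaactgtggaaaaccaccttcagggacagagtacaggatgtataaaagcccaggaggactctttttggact
Akr1c18 (chr13:4150647-4150896, minus strand): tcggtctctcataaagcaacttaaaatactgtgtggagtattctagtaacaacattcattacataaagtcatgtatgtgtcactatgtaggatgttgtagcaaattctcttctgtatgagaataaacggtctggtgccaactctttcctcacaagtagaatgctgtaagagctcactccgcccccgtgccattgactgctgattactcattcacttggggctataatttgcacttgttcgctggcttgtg

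TGTTCT was in 1 of the 11 windows (Prlr) and in 19.0% of all 32851 promoter windows of the same length. TGACC was in 3 (Akr1c18, Cish and Esr1) and in 40.5% of all, and the full inverted repeat in 0 and in 0.00913%. The STAT5 type was in 3 windows (Prlr, Esr1 and Cish) and in 8.30% of all. These are matches of letters only. The absence of a match says that the letters are not in this window, and hormone response elements can lie far from a start site.

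The genes around each of the 3 were looked at next. Counting Kap itself, 10 genes known as androgen-regulated in mouse kidney were compared. S1 was below S2 in 5 of them and above it in 1, and below S3 in 4 and above it in 4. Kap is in both counts of genes lower in S1. The median differences were -0.84 for S1 minus S2 and -0.39 for S1 minus S3. Nudt19, a peroxisomal coenzyme A hydrolase, went with Kap: its level was 99.2 TPM (S1), 1393 (S2) and 2364 (S3). Odc1, ornithine decarboxylase of polyamine synthesis, ran the other way with 417, 108 and 54.5 TPM. Gusb, beta-glucuronidase, was at 23.4, 12.6 and 9.1. Cyp4b1, a cytochrome P450, was highest in S2 with 95.9, 197 and 16.7, and so was Adh1, alcohol dehydrogenase 1, with 91.8, 145 and 14.1. By highest value alone, with no fold limit, 2 of the 10 peaked in S1, 4 in S2 and 4 in S3. These include low genes: Acsm3 (0.0, 1.3 and 0.3 TPM), Cyp7b1 (0.1, 0.5 and 3.3) and Cyp2j13 (0.6, 0.4 and 1.1). Slc22a30, counted in S2, was nearly level between S2 and S3 (4.6, 22.9 and 22.4). After median-of-ratios scaling S1 was below S2 in 3 of the 10 and above it in 2.

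Among genes known to be higher in female kidney, Slc7a12, an amino acid transporter, was at 2.5, 1613 and 3048 TPM. Abcc3, an efflux pump of conjugates, was at 0.3, 98.6 and 203. Cyp4a14, a fatty acid hydroxylase, instead peaked in S2, with 1.0, 315 and 1.5 TPM. Counting Prlr, 4 of 4 had S1 below S2 and 3 had S1 below S3, with medians of -6.78 and -6.01.

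Akr1c18 belongs to a cluster of aldo-keto reductase genes of similar sequence, whose reads the authors' counting may have divided among copies. Akr1c14, a 3-alpha-hydroxysteroid dehydrogenase, had the same order with 0.2, 165 and 245 TPM. Akr1c21, a 17-alpha-hydroxysteroid dehydrogenase, had the opposite one, from 995 TPM in S1 through 963 to 42.2 in S3. Akr1c19 was highest in S2 (7.8, 34.8 and 17.8 TPM). Akr1c13 was at 9.9, 6.4 and 1.2, Akr1c12 at 3.0, 3.0 and 1.4, and Akr1c20 at 1.5, 4.0 and 0.4. Akr1cl was at 0.5, 1.9 and 0.6, and Akr1c6 stayed at or under 0.2 TPM. Of the 8 compared, Akr1c18 included, S1 was below S2 in 4 and above it in none, and below S3 in 3 and above it in 2. The 4 below S2 became 3 after quantile normalization and 5 with a pseudocount of 0.1. After median-of-ratios scaling S1 was below S2 in 3 and above it in 1. The summed level of the cluster was 1019 TPM in S1, of which Akr1c21 was nearly all, and 5203 in S3, most of it from Akr1c18.

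Napsa was the most abundant of 8 aspartic protease genes in S2 and S3, but not in S1. Ctsd, the lysosomal cathepsin D, was at 794, 322 and 328 TPM, above Napsa in S1 and below it in S2 and S3. The other 6 genes of the family, among them the renin gene Ren1 (0.1, 0.9 and 0.4 TPM), stayed under 10 TPM.

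Of the pituitary hormone receptors, Ghr was the more abundant. Ghr, the growth hormone receptor, was at 176 TPM in S1 against 1126 in S2 and 1556 in S3, and stood 73rd of all genes in S3. Prlr, which binds prolactin, had 19.1, 414 and 532 TPM. Both were highest in S3 and lowest in S1, but the step from S1 was larger for Prlr. S3 was 27.8-fold above S1 for Prlr and 8.82-fold for Ghr, so the TPM ratio of Ghr to Prlr was 9.24 in S1 and then 2.72 and 2.93. From S2 to S3 they were 1.29-fold and 1.38-fold higher. TPM values depend on which isoforms were assumed for length, and both genes are known to make short forms as well as the full receptor.

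Other class I cytokine receptors were below Ghr in each segment and below Prlr in S2 and S3. In S1, Il11ra1 and Il13ra1 were above Prlr. Of 16 listed, 10 were compared. Besides Prlr and Ghr, Lepr, Lifr, Osmr and Il2rg were lower in S1 than in S2 and none was higher, with a median of -1.05. Of these, Lepr (0.2, 2.2 and 1.1 TPM) and Osmr (0.3, 1.7 and 0.4) were low. Those lower in S1, 6 in all, became 4 after quantile normalization and 4 after median-of-ratios scaling. With a pseudocount of 5 they became 3. Against S3, Lifr and Il4ra were lower in S1 with Prlr and Ghr, and none was higher (median -0.67). Those 4 became 3 after quantile normalization, and 2 after median-of-ratios scaling or with a pseudocount of 5. Lifr, the receptor for leukemia inhibitory factor, was at 14.7, 31.5 and 31.2 TPM. Il11ra1 (54.3, 67.8 and 68.0 TPM), Il13ra1 (26.8, 21.9 and 28.1) and the shared subunit Il6st (16.4, 15.6 and 13.5) differed by less than 2-fold. Il2rg, a subunit of lymphocyte receptors, was at 1.2, 8.3 and 2.2 TPM. It was the 1 receptor that passed 2-fold on the log2(TPM + 1) scale with S2 above S3. With a pseudocount of 0.1 there were 2 such receptors, and with 5 there were 0.

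**Figure D2:**
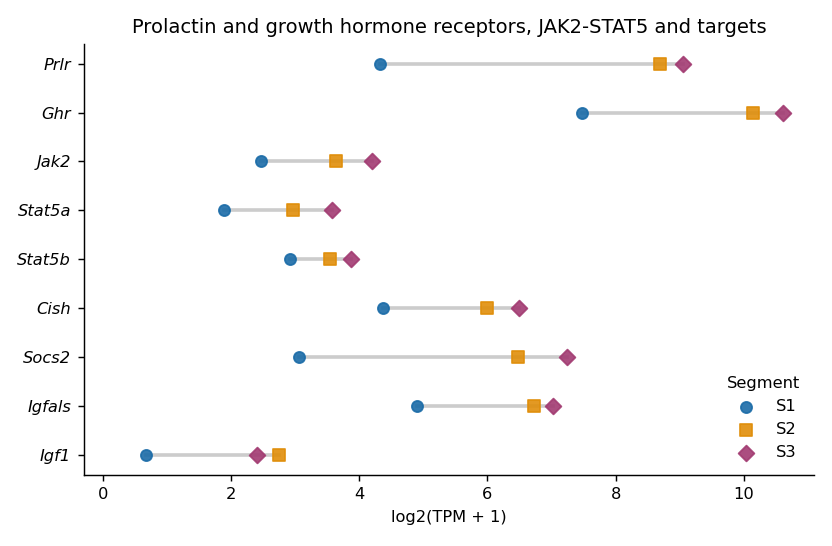
Expression as log2(TPM + 1) of the prolactin and growth hormone receptors, the kinase and STAT5 genes that transmit their signal, and known targets, 1 value per gene and segment with no error. S1 has the lowest value in each of the 9 genes, and S3 the highest in all but Igf1.

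The transmitters of the signal had smaller steps in the same order in the deposited TPM. Jak2, the kinase bound to both receptors, was at 4.5 TPM in S1 and at 11.5 and 17.3 beyond it. Stat5a was at 2.7, 6.8 and 10.9 TPM. Stat5b was at 6.6, 10.6 and 13.6, with a log2(TPM + 1) difference of -0.94 for S1 minus S3. For S1 minus S2 it was -0.61, about the size of the shift in the median of all genes after median-of-ratios scaling (0.58). The S1 to S2 order of Stat5b is thus not secure under that scaling. In the JAK and STAT families as a whole, 2 of 10 compared genes, Jak2 and Stat5a, were lower in S1 than in S2. Neither passed 2-fold there after quantile normalization or median-of-ratios scaling. In the deposited TPM 0 of the 10 were higher in S1 than in S2, and after median-of-ratios scaling 3 were. Against S3, S1 was lower for Jak2 and Stat5a. Jak1, used by many other cytokine receptors, ran the other way at 43.2, 29.0 and 22.0 TPM. Stat6 (34.6, 28.5 and 28.7) and Stat3 (22.7, 15.8 and 14.5) differed by less than 2-fold.

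Cish, which encodes a STAT5-induced inhibitor of growth hormone and prolactin signalling, was at 19.6 TPM in S1 against 62.7 in S2 and 88.9 in S3. S3 was 4.54-fold above S1 and 1.42-fold above S2. Among the 8 genes compared, Cish had the smallest span from highest to lowest segment (2.13), and its S1 minus S2 difference, -1.63, was -0.94 after median-of-ratios scaling. Socs2, the family member best known to restrain growth hormone action, had a wider range: 7.3, 88.1 and 151 TPM. In S1 Cish was thus above Socs2, and in S2 and S3 below it. The other 6 suppressors, all at or under 8.0 TPM, did not reach 2-fold on the log2(TPM + 1) scale. Socs6 was at 8.0, 6.6 and 7.2 TPM, Socs7 at 1.5, 2.6 and 3.0, Socs5 at 1.9, 2.1 and 1.3, and Socs4 at 1.0, 1.7 and 1.5. Socs1 and Socs3, which interferons and interleukin-6 induce, stayed under 1 TPM in each segment. Of the 6 suppressors compared, S1 was below S2, and likewise below S3, in 2 (Cish and Socs2) and above them in none. After median-of-ratios scaling Cish no longer passed 2-fold against S2 but did against S3 (-1.94).

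The windows of Prlr, Esr1 and Cish with a STAT5 type match are shown because these letters are the ones STAT5 can bind, with matched letters in capitals. Prlr has 3 RefSeq start sites and Esr1 has 2, and in each the match was in the window of the second. In Prlr the STAT5 type match lies from 110 to 102 bases before that start and a TGTTCT match from 12 to 7 bases before it, without overlap. In Esr1 the STAT5 type match, of the same 9 letters as in Prlr, lies from 188 to 180 bases before the start. Cish has a pair of matches from base 1 to 9 and from base 12 to 20 after its start, and just that stretch is printed. Before the start Cish has none, and over the 250 bases before a start the share of all windows with a match was 7.02%.
Prlr, second start (chr15:10223656-10223905, plus strand): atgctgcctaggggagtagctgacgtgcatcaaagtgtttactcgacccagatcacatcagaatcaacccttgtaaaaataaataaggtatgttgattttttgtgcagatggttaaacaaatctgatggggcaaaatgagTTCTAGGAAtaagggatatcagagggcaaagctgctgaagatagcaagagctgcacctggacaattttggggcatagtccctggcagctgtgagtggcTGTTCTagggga
Esr1, second start (chr10:4709908-4710157, plus strand): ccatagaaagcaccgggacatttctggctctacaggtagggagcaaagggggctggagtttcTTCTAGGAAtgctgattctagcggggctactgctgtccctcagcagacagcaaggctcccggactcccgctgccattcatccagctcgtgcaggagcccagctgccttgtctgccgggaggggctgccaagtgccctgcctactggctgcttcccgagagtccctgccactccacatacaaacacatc
Cish, from the start site (chr9:107296659-107296678, plus strand): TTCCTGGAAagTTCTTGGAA

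The insulin-like growth factor genes, several of them targets of growth hormone in liver, did not move together. Igfals, the acid-labile subunit that stabilises circulating growth factor, was at 28.8, 105 and 129 TPM. Igf1, the chief mediator of growth hormone, was at 0.6, 5.7 and 4.3. Igf2 was listed at 0 in S1 and at 8.2 and 56.0 TPM in S2 and S3. Igfbp4, a binding protein, was at 1446, 336 and 4.6 TPM, and Igfbp5 was at 27.6, 33.9 and 3.6. Igfbp3 was highest in S2 (14.9, 113 and 21.9 TPM). Igfbp7 (3865, 3826 and 5286 TPM), Igfbp1 (40.7, 36.5 and 36.1) and Igf1r (6.7, 13.3 and 6.7) differed by less than 2-fold, and Igf2r was at 16.5, 5.9 and 7.5. Of 11 compared, S1 was below S2 in 4 and above it in 3, and below S3 in 3 and above it in 4.

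Esr1, which encodes estrogen receptor alpha, was expressed at a low level. It was at 0.3 TPM in S1 against 5.2 in S2 and 7.4 in S3, the last above 43.1% of the 12873 genes of at least 1 TPM there. Its difference for S1 minus S2, -2.25, came to -0.94 with a pseudocount of 5. Nr3c1, the glucocorticoid receptor gene, had the opposite order: 28.1, 24.6 and 11.9 TPM. Nr3c2, the mineralocorticoid receptor gene, was nearly level at 1.8, 2.2 and 2.5. The ratio of Nr3c1 to Nr3c2 was 15.6, 11.2 and 4.76. Esr2 and Pgr, the genes of estrogen receptor beta and the progesterone receptor, stayed at or under 0.2 TPM, and Gper1 was listed at 0 throughout. On the log2 scale the difference of Nr3c1 was 0.18 for S1 minus S2 and 1.17 for S1 minus S3, so it passed 2-fold against S3.

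Chaperones hold steroid receptors ready to bind hormone. Hsp90ab1 was at 630, 787 and 696 TPM, Hsp90aa1 at 221, 226 and 219, and the immunophilin Fkbp4 at 208, 133 and 108. Of 7 genes, 1 passed 2-fold with S1 above both S2 and S3: Fkbp5, at 62.1, 11.0 and 5.7 TPM. The number that passed 2-fold with S1 above S2 was 3 after median-of-ratios scaling.

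**Figure D3:**
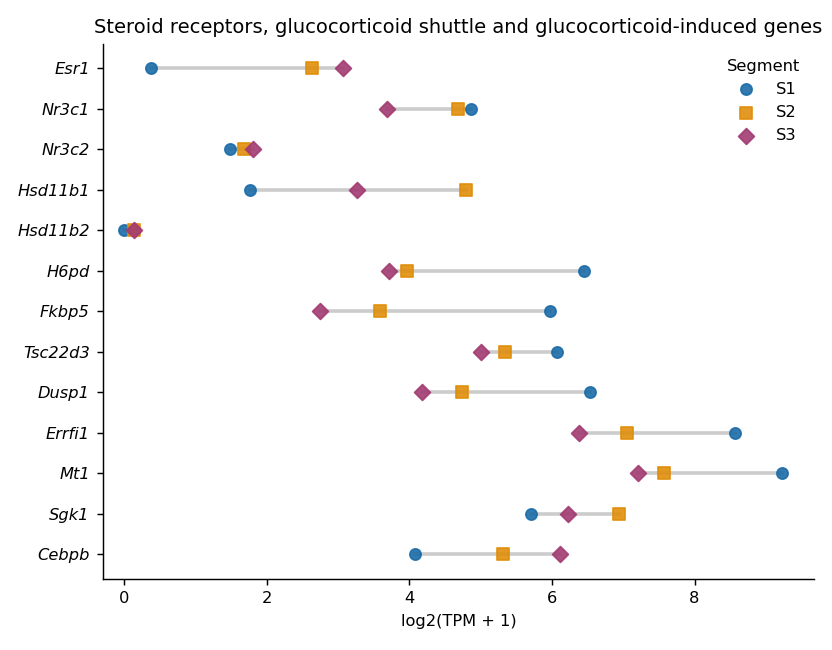
Expression as log2(TPM + 1) of steroid receptor genes, the genes of glucocorticoid activation and inactivation, and glucocorticoid-induced genes, 1 value per gene and segment with no error. Nr3c1, H6pd, Fkbp5, Dusp1, Errfi1 and Mt1 have their highest value in S1, whereas Esr1 and Cebpb are highest in S3 and Hsd11b1 and Sgk1 in S2.

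Hsd11b1, which regenerates corticosterone inside cells, was at 2.4 TPM in S1 against 26.7 in S2 and 8.6 in S3. S2 was 11.1-fold above S1 and 3.10-fold above S3, a peak that none of the other 8 genes had above 1 TPM. Its difference for S1 minus S3, -1.50, was -0.88 with a pseudocount of 5. Hsd11b2, which protects the mineralocorticoid receptor from glucocorticoid in the distal nephron, was listed at 0 in S1 and at 0.1 TPM in S2 and S3. Markers of the cells that express it were low as well. In the principal cell list of 5, Aqp2 stayed at or under 0.5 TPM and Avpr2, Scnn1b and Scnn1g at or under 0.2, though Aqp3 was at 28.3, 5.2 and 0.1. H6pd makes the cofactor that lets the type 1 enzyme run toward active hormone. Its order was not that of Hsd11b1: 86.3, 14.6 and 12.1 TPM.

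Endothelial markers had a profile like that of Hsd11b1. Their summed level over 7 of 7 genes was 57.1 TPM in S1 against 563 in S2 and 227 in S3, and each of the 7 was highest in S2. Relative to S2, Hsd11b1 was at 8.99% in S1 and 32.2% in S3. The markers ranged from 8.54% (Kdr) to 12.5% (Cdh5) in S1 and from 17.1% (Kdr) to 49.6% (Plvap) in S3, with Emcn at 9.05% and 32.9%. By the distance between profiles over the 3 segments, the 3 genes nearest to Hsd11b1 among 7249 of at least 10 TPM were Eng (3.0, 32.1 and 10.3 TPM), Lgals9 (3.1, 31.7 and 10.7) and Tmem204 (4.8, 43.2 and 14.9). Eng encodes endoglin, a coreceptor of endothelial cells. Other cell types had a peak in S2 as well. Immune markers summed to 5.1, 75.6 and 54.7 TPM, and 4 of the 5 compared were highest in S2: C1qa (1.1, 12.7 and 2.2 TPM), C1qb (2.2, 23.3 and 3.5), Cd68 (0.6, 4.4 and 1.4) and Ptprc (0.5, 2.5 and 0.4). So were the podocyte and endothelial gene Podxl (1.4, 13.4 and 3.1) and the stromal sum. The part of endothelial, immune or stromal RNA in the level of Hsd11b1 was not tested. In bulk tubule samples a different number of cells and a different RNA level per cell cannot be told apart. Esr1, at 5.77% in S1 and 142% in S3, and Cish, at 31.3% and 142%, did not have this profile, while Igf1, at 10.5% and 75.4%, lay between.

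**Figure D4:**
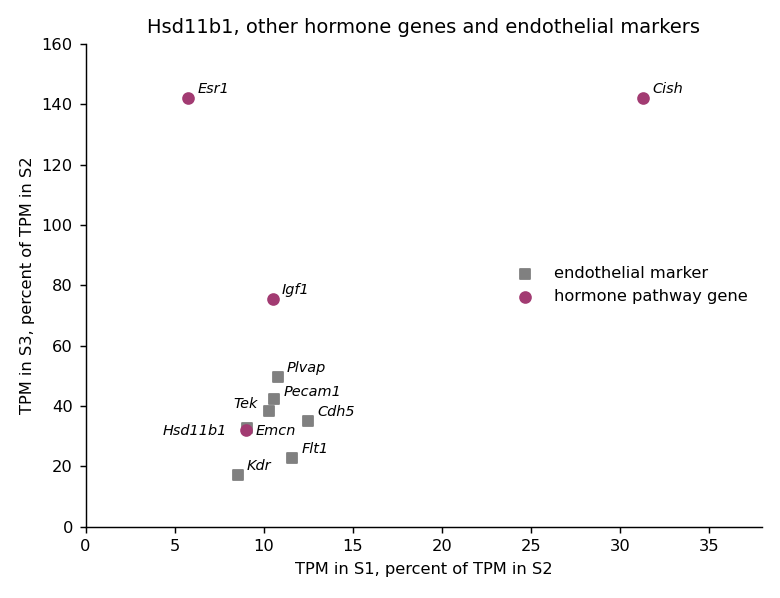
Level in S1 (horizontal) and S3 (vertical), each as a percentage of the TPM in S2, for hormone pathway genes (circles) and 7 endothelial markers (squares), 1 value per gene and segment with no error. Hsd11b1, at 8.99% and 32.2%, falls among the markers next to Emcn, while Esr1 and Cish lie above 100% on the vertical axis.

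Glucocorticoid-induced genes differed in both directions. Of 13 compared, S1 was above S2 in 5 and below it in 3, and above S3 in 7 and below it in 2, with medians of 0.74 and 1.08. Errfi1, an inhibitor of epidermal growth factor receptor signalling, was at 377, 132 and 82.4 TPM. Mt1, a metallothionein, was at 596, 189 and 146, and Dusp1, a phosphatase of MAP kinases, at 92.0, 25.6 and 17.2. Tsc22d3, which encodes the glucocorticoid-induced leucine zipper, was at 66.6, 39.5 and 31.0. Cebpb and Cebpd, a pair of related transcription factors, were the reverse. Cebpb was at 15.9, 38.9 and 68.3 TPM, and Cebpd, with the largest difference of the list (-4.31 for S1 minus S3), at 0.6, 17.9 and 30.7. Sgk1, the kinase that also carries aldosterone action, was highest in S2 at 51.3, 122 and 73.9. After median-of-ratios scaling S1 was above S2 in 8 and below it in 1. Most of these genes respond to other signals too, and the labels name no hormone treatment.

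Enzymes of steroid synthesis and turnover varied by gene. The first enzymes of synthesis were near 0: Cyp11a1, which starts it from cholesterol, stayed at or under 0.1 TPM. Hsd17b14, a 17-beta-hydroxysteroid dehydrogenase, was at 0.1, 60.4 and 184 TPM, and Hsd17b2, which inactivates estradiol and testosterone, was listed at 0 in S1 and at 12.8 and 11.5 TPM in S2 and S3. Hsd3b2, a 3-beta-hydroxysteroid dehydrogenase, was at 123, 22.6 and 18.6 TPM, and its relative Hsd3b3 at 48.8, 106 and 66.3; the 2 are close copies. Srd5a1, a 5-alpha-reductase, was at 27.1, 20.4 and 12.7. Hsd17b10 (206, 237 and 250 TPM), Hsd17b4 (134, 107 and 84.6) and Hsd17b12 (75.3, 58.5 and 60.1) differed by less than 2-fold. Of 17 compared, S1 was below S2 in 3 and above it in 1, against 17.7% and 6.62% of all genes. It was below S3 in 3 and above it in 2, against 13.1% and 10.5%. Nothing is read from these counts. After median-of-ratios scaling S1 was above S2 in 5.

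**Figure D5:**
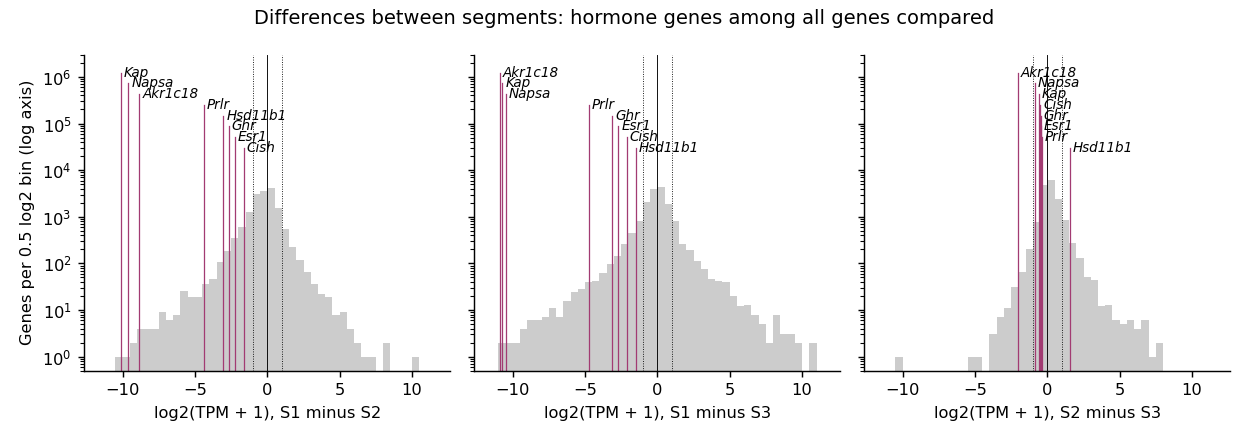
Numbers of genes (log axis) by difference in log2(TPM + 1) for each pair of segments over all 16053 genes compared, with the 8 compared hormone genes as lines, whose height carries no value, and the 2-fold limits dotted. For both differences from S1 the 8 lines lie left of the lower limit, and for S2 minus S3 only Akr1c18 and Hsd11b1 lie beyond the limits.

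Profiles were also compared with the 7249 genes of at least 10 TPM in 1 segment, those with only a predicted-gene or clone name left out, by the distance between log2(TPM + 1) values, each gene centred on its own mean over the 3 segments. Over so few points a close match is easily found, and it says nothing of shared control. Among the 9 genes the closest were Esr1 and Ghr (0.35) and Kap and Napsa (0.37). The profile of Esr1, at 0.3 TPM in S1, depended on the pseudocount, and so did its distances. For S1 minus S3, Esr1 was at -2.69 and Ghr at -3.13. With a pseudocount of 0.1 they were at -4.23 and -3.14, and with 5 at -1.23 and -3.11. Outside the 9 genes, the nearest to Kap were Serpina1f (0.6, 873 and 1416 TPM, distance 0.80), Slc7a12 (0.93) and Slc22a7 (0.99). The same 3 were nearest to Napsa, at 0.51, 0.60 and 0.76. For Akr1c18 they were Slc7a12 (0.91), Serpina1f (1.01) and the potassium channel Kcnk1 (0.5, 382 and 850 TPM, distance 1.22). Prlr was matched by Ggct (9.5, 215 and 271 TPM, distance 0.02), Ugt3a1 and Aacs. Ghr was matched by the transporters Slc17a3 (93.6, 621 and 878 TPM, distance 0.06) and Slc27a2, and by Apoa1. Apoa1 was at 0.2, 7.0 and 10.4 TPM, so its distance depends on the pseudocount too. Cish was matched by Ppp3cc (7.0, 24.4 and 34.8 TPM, distance 0.03), Smlr1 and Ralgps2, and Esr1 by Tet2 (8.4, 44.1 and 56.9 TPM, distance 0.06), Plpp2 and Gltp. Hsd11b2 was too low for a match to be read.

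The proximal tubule marker list summed to 19188, 9786 and 3129 TPM. The sum was mostly Slc34a1 (10241, 2227 and 17.0 TPM) and Miox (8516, 5441 and 529) in S1 and S2. Aqp1 (33.0, 383 and 561) and Ggt1 (75.1, 1305 and 1539) ran the other way, in the order of most of the 9 genes. Lrp2 (143, 228 and 259 TPM), Cubn and Hnf4a differed by less than 2-fold. Summed markers of podocytes, distal convoluted tubule and intercalated cells were between 0.3 and 14.4 TPM, and stromal markers between 1.9 and 19.7, highest in S2. Of 4 thick ascending limb markers, Umod was at 0.2, 21.1 and 29.1 TPM, in the order of most of the 9 genes, and the other 3 were at or under 1.0. Of the immune markers, Csf1r was at 0.5, 32.0 and 46.9 TPM, in the order of most of the 9 genes. The part of such cells in the levels above was not tested.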

How the data were processed

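RNA-seq of female mouse S1, S2 and S3 was used, and ATAC-seq libraries of the series are not analysed here. The authors deposited TPM, 1 value per gene and segment to 1 decimal. STAR, RSEM and the mouse build mm10 appear in the submitters' processing notes. How libraries were combined, and the annotation, are not given in the sources used here. Of 8 value columns, 3 match labelled RNA-seq groups by name and 5 were not used. TPM keeps no depth, so no interval was computed.

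Differences were taken on log2(TPM + 1), a pseudocount of 1, among the 16053 genes of at least 1 TPM in 1 segment, and counted from 2-fold upward, with ties included (Python 3.11.15, pandas 2.3.3). The code was tested on simulated data. Values written as N-fold above or higher are plain TPM ratios. Where rows shared a symbol, that of higher mean was kept. With 1 value per segment no test was possible.

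The genes, the 13 lists from general knowledge and 9 marker lists were chosen with earlier results of these data known. Named are the 9 genes, the families of steroid receptors, suppressors of cytokine signalling and aldo-keto reductases, and from each other list up to 6 genes of at least 10 TPM that differed 2-fold and up to 3 that did not, by level. Stat5b, Igf1, Cyp11a1, Ren1, Cebpd, Lepr, Osmr, Il2rg, Il4ra and single marker genes were named outside that rule after their values were seen. So were Acsm3, Cyp7b1, Cyp2j13 and Slc22a30. Some list genes are not reported here. Promoter windows are from RefSeq, GRCm38.p6. Gene IDs of the 9 matched their symbols in the reference name table. The alternatives were pseudocounts of 0.1 and 5, no filter or a filter of 5 TPM, quantile normalization, median-of-ratios scaling, and totals without mitochondrially encoded genes, Gpx3 and Kap. Median-of-ratios factors from genes of at least 1 TPM in every segment were added after seeing the data.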

Additional observations from a re-analysis of the deposited data

How the results depend on the processing

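No paired analysis was possible because the table gives 1 value per gene and segment, and for the same reason no library could be left out. Over 8 alternatives, the counts of hormone genes lower in S1 than in S2 or S3 stayed within 1.5 times. The number lower in S2 than in S3, 1, became 2 after quantile normalization and 4 after median-of-ratios scaling. Of 192 alternative values for single genes, 185 kept their side of 2-fold, 3 lost it, 4 gained it and 0 turned direction. Median-of-ratios scaling over 25489 genes moved the median of all genes by 0.58 for S1 minus S2 and by -0.43 for S2 minus S3. Taken over the 11008 genes of at least 1 TPM in every segment it moved them by 0.00 and -0.05. Quantile normalization moved them by 0.20 and -0.15. Genes lower in S1 than in S2 numbered 2840, and 4738 with a pseudocount of 0.1 and 994 with 5. Genes higher in S2 than in S3 numbered 1403, and 730 after median-of-ratios scaling. Values rounded to 1 decimal limit what can be said of Esr1 in S1 and of Hsd11b2, which no setting with a filter compared.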
